A study of Mus musculus with 4 samples.

Results

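Metalloproteinases, ADAM and ADAMTS proteases and their Timp inhibitors were followed in mouse osteoclast cultures with an induced NFATc1 deficiency and in wild-type cultures. The set held 10 genes: the matrix metalloproteinases Mmp9 and Mmp14, the ADAM genes Adam8, Adam9 and Adam17, the ADAMTS genes Adamts1 and Adamts5, and the inhibitors Timp1, Timp2 and Timp3. Its members were all 23 probe sets, of 22690 on the array, whose single gene symbol in the platform annotation was one of these names. The NFATc1-deficient mice were NFATc1 fl/fl MxCre+ and were given polyIC, which switches on the interferon-responsive Mx promoter that drives the Cre recombinase. The wild-type mice were NFATc1 fl/fl MxCre-, so the floxed alleles were common to both groups, and both were of the C57BL/6 strain. The sources used here do not say whether the wild-type mice received polyIC. Sorted c-Kit-positive, c-Fms-positive marrow precursors were grown with M-CSF and RANKL for 3 days. There were 2 arrays per genotype, and each carried RNA pooled from 3 mice (replicate 1) or 4 mice (replicate 2).

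These proteases share a zinc ion in the active site. Secreted MMPs such as MMP9 cut denatured collagen and other matrix proteins, membrane-bound MMPs such as MMP14 cut matrix at the cell surface, ADAMs mostly shed membrane proteins, and ADAMTS enzymes cut proteoglycans. Timps bind the active site and block it. In bone, MMP9 is abundant in osteoclasts and MMP14 sits at their surface, and both have been tied to osteoclast migration and matrix removal.

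The targeted gene was measured by 2 probe sets. For the brighter one, Nfatc1 signal was 3018.2 and 4097.9 on the NFATc1-deficient arrays, against 5433.6 and 6146.7 on the wild-type arrays, a log2 change of -0.71 (SE 0.15, limma adjusted p = 0.0102). The deficient mean was 61.5% of the wild-type mean, and where the probes lie relative to the deleted exons is unknown here. Nfatc1 lost the call when NFATc1-deficient replicate 1 was left out (adjusted p = 0.0881) and in the fit with no variance trend (0.0600). Signals are MAS5 values on a linear scale, and log2 changes are NFATc1-deficient minus wild-type on log2(signal + 23.3). All 8 tested osteoclast markers fell (median -1.26), where 11.8% of 7801 tested genes did. Among them was Itgb3, whose signal was 4.6 and 10.2 on the NFATc1-deficient arrays against 610.6 and 495.1 on the wild-type arrays. Calcr (-3.90), Oscar (-3.88), Acp5 (-1.30), Clcn7 (-1.22) and Ocstamp (-0.98) were among the rest. A second, dimmer Clcn7 probe set did not pass (-0.66, limma adjusted p = 0.126). Itgb3 and Calcr passed the filter on low signal through the wild-type arrays alone, so they had to differ, but all 8 were also lower when every probe set was tested. Deficient signals near the pseudocount leave the size of the largest of these falls unknown. Xist signal was 2690 and 111.4 on NFATc1-deficient replicates 1 and 2, against 3595.4 and 106.1 on wild-type replicates 1 and 2, so in both genotypes the sex of the mice differed between the replicate 1 and replicate 2 pools. In cultures of this kind, fewer cells of a type and less RNA per cell cannot be told apart.

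Among the proteases, both MMPs fell and Adam8 rose in the NFATc1-deficient cultures, Adamts5 was higher from a low signal, and no tested Timp probe set passed the test. With 1 probe set per gene, 7 of the 10 genes had enough signal to be tested. Of these, 2 were lower, where 11.8% of all tested genes were lower, and 2 were higher, where 12.8% were higher, each 28.6% of the tested genes of the set. Adam9, Adam17 and Timp2 did not pass, and Adamts1, Timp1 and Timp3 were too dim to be tested. Adamts5 passed the filter through the deficient arrays alone, so it had to differ, and without it 1 of 6 tested genes was higher. Of the 23 probe sets, 7 had both deficient arrays below both wild-type arrays, against 24.2% of all probe sets, and 8 had both above, against 27.6%. These shares (30.4% and 34.8%) lie near the background and are no result about the set.

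**Figure D1:**
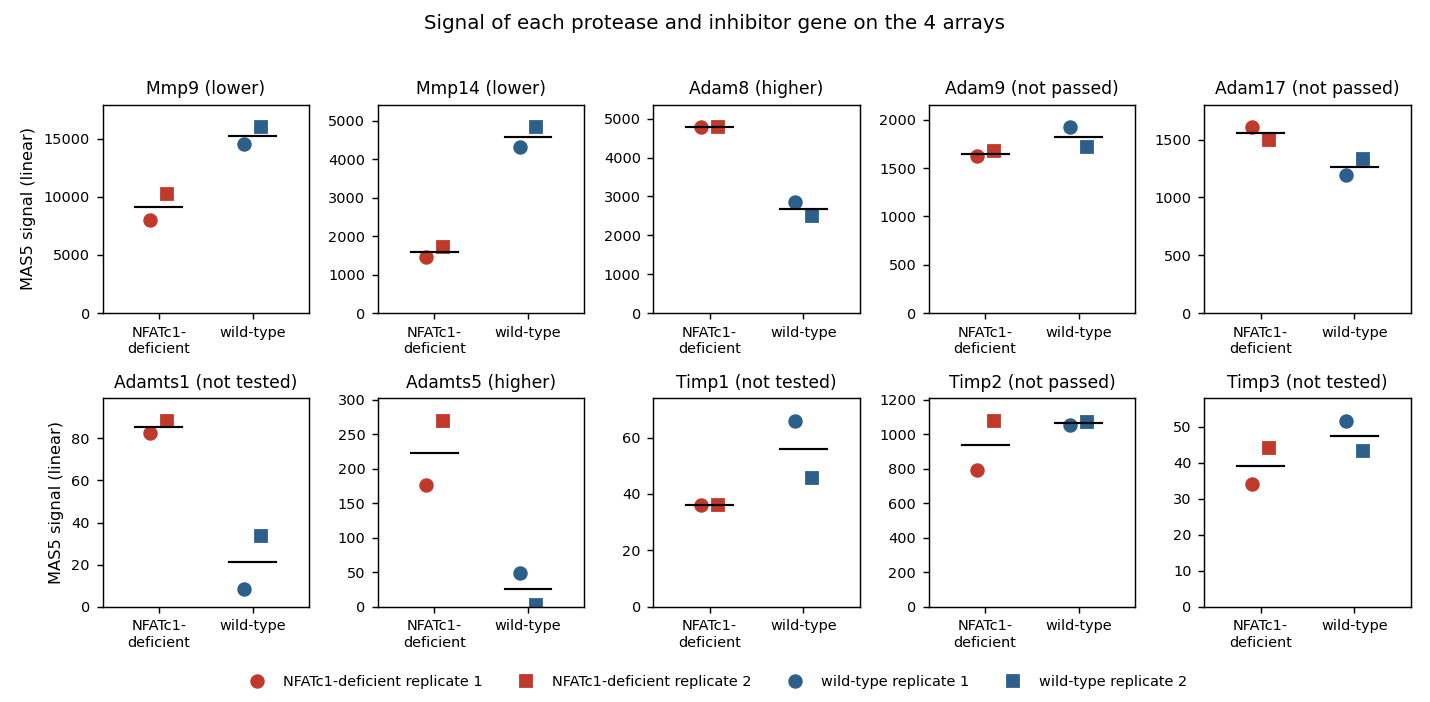
MAS5 signal (linear axis from 0) of the brightest probe set of each of the 10 genes on the 2 NFATc1-deficient and 2 wild-type arrays, with the group means as black bars. Mmp9 and Mmp14 lie lower, and Adam8 and Adamts5 higher, on both deficient arrays, and the Timp2 groups overlap. Each panel has its own scale, so levels are not comparable between genes.

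Mmp14, the membrane-bound collagenase, had the largest fall of the set. Its brighter probe set had signals of 1455.6 and 1728.8 on the NFATc1-deficient arrays, against 4328 and 4843.3 on the wild-type arrays. The groups did not overlap, and the deficient mean was 34.7% of the wild-type mean. The log2 change was -1.52 (SE 0.12, limma adjusted p = 0.000186). The second Mmp14 probe set had 826.6 and 1087.5 on the NFATc1-deficient arrays, against 2788.1 and 2930.3 on the wild-type arrays, again with no overlap. Its log2 change was -1.57 (SE 0.14, limma adjusted p = 0.000249). Both probe sets passed under all 12 other settings that were tried, with changes of -1.64 to -1.39 for the brighter one.

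Mmp9, the gelatinase that osteoclasts secrete, also fell. Its brighter probe set had 7964.2 and 10263.5 on the NFATc1-deficient arrays, against 14532.9 and 16008.3 on the wild-type arrays. Both deficient arrays lay below both wild-type arrays, and the deficient mean was 59.7% of the wild-type mean. The log2 change was -0.75 (SE 0.14, limma adjusted p = 0.00587). The call was lost without NFATc1-deficient replicate 1 (change -0.57) and with median scaling (limma adjusted p = 0.0503). With median scaling the change was nearly the same (-0.74), and the SE was larger (0.29). The second Mmp9 probe set had 5621.8 and 6771.4 on the NFATc1-deficient arrays, against 10612.2 and 12654.1 on the wild-type arrays. Its log2 change was -0.91 (SE 0.13, limma adjusted p = 0.00216), and it passed under all 12 other settings, with adjusted p up to 0.0342.

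Adam8, an ADAM of myeloid cells with a role in osteoclast formation and fusion, rose. Its only probe set had 4788.4 and 4787.3 on the NFATc1-deficient arrays, against 2854.7 and 2502.5 on the wild-type arrays. The deficient arrays gave nearly the same signal, and both lay above both wild-type arrays. The mean signal was 1.79-fold higher in the deficient cultures, a log2 change of 0.84 (SE 0.11, limma adjusted p = 0.00123). Leaving out single arrays and changing the scaling, pseudocount, filter or fit left it past the threshold, with changes of 0.74 to 0.93. Neutrophils also carry Adam8, so granulocyte markers were set beside it. Of 8 tested, 3 rose (S100a8 by 1.41, S100a9 by 1.34 and Ngp by 1.04), where 12.8% of all tested genes did, and the summed signal of the list was 15612.2 and 7469.8 on the NFATc1-deficient arrays, against 5477.3 and 6056.9 on the wild-type arrays. The count of markers that rose was 1 without NFATc1-deficient replicate 1, 7 without NFATc1-deficient replicate 2, 5 without wild-type replicate 2 or with median scaling, and 0 with no filter or no variance trend. The part of granulocytes in the signals of Adam8 and Mmp9 was not tested.

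The stretch of 250 bases before the gene start is shown for Mmp14 and Adam8, tested proteases that fell and rose, and for Timp2, the inhibitor that did not pass. Sequences are from RefSeq (GRCm38.p6), on the gene's strand, 5′ to 3′. The table held 7 of the 10 genes: Mmp14, Adam8, Adam17, Adamts1, Timp1, Timp2 and Timp3. Capitals mark the letters GGAAA, the core bound by NFAT proteins, on either strand (read as TTTCC on the strand shown).
Mmp14 (chr14:54431348-54431597, + strand): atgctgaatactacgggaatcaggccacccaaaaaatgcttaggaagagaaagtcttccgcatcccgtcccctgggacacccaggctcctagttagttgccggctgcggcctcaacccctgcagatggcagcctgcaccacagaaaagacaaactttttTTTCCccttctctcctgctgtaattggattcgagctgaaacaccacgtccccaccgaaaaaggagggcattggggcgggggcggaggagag
Adam8 (chr7:139992563-139992812, - strand): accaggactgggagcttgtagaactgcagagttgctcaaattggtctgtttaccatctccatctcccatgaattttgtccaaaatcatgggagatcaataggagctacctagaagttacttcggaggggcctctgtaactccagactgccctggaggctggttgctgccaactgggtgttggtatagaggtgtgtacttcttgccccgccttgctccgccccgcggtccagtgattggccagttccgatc
Timp2 (chr11:118355412-118355661, - strand): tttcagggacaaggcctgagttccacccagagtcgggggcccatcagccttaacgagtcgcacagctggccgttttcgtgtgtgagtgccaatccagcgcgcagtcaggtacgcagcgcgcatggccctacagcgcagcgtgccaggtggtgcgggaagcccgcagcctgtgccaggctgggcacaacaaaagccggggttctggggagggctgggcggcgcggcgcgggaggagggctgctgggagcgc
GGAAA occurred in 3 of these 7 windows (Mmp14, Adamts1 and Timp1), against 55.6% of 32851 windows of the same length. TGANTCA, the AP-1 site, occurred in 0 of 7, against 6.75% of all windows. The GC content was 55.2% for Mmp14, 52.8% for Adam8 and 68% for Timp2. A match is a run of letters and not a measured site, and windows beyond 250 bases were not searched.

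Adam9 and Adam17 did not pass. Adam9, a widely expressed ADAM, had 1623.2 and 1674.6 on the NFATc1-deficient arrays, against 1924.1 and 1720.1 on the wild-type arrays. The groups did not overlap, but the log2 change was -0.14 (SE 0.11, limma adjusted p = 0.400). Adam17, the sheddase that releases TNF and the M-CSF receptor, was read by 3 probe sets. The brightest Adam17 probe set had 1610.1 and 1499.5 on the NFATc1-deficient arrays, against 1196.3 and 1337.4 on the wild-type arrays, without overlap. The log2 change of this probe set was 0.29 (SE 0.11, limma adjusted p = 0.0984), and it missed the threshold under every other setting (0.0761 to 0.341). The other Adam17 probe sets had changes of 0.18 (adjusted p = 0.307) and 0.07 (adjusted p = 0.755).

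Adamts5, an aggrecan-cutting enzyme, was higher in the NFATc1-deficient cultures, from a low signal. Its brighter probe set had 176.7 and 269.5 on the NFATc1-deficient arrays, against 49.3 and 2.7 on the wild-type arrays. Neither deficient array overlapped the wild-type arrays, but the wild-type signals differed widely and averaged 26, close to the pseudocount. The log2 change was 2.48 (SE 0.46 in the main fit). Since the filter favours such a probe set, its test is that of the fit over all probe sets with no filter (SE 0.52, limma adjusted p = 0.0323). The size depended on the pseudocount, with 4.01 at a pseudocount of 1 and 1.42 at 93.2. The dimmer Adamts5 probe set was not tested and had 33.7 and 88.7 on the NFATc1-deficient arrays, against 19.5 and 18.2 on the wild-type arrays. Adamts1, a protease of the same family, is the neighbouring protein-coding gene of Adamts5 on chromosome 16. Adamts1 signal was 82.7 and 88.4 on the NFATc1-deficient arrays, against 8.6 and 33.8 on the wild-type arrays, and again the groups did not overlap. It lay under the filter, under which 17.5% of probe sets had both deficient arrays above both wild-type arrays. In the fit over all probe sets, Adamts1 had a limma adjusted p of 0.0700 and the dimmer Adamts5 probe set 0.203. Both genes are known from stromal cells, whose markers had a summed signal of 429.9 and 369.3 on the NFATc1-deficient arrays, against 425.7 and 293.4 on the wild-type arrays. Only 2 of the 9 stromal markers found were bright enough to test, Dcn (0.17, limma adjusted p = 0.628) and Col1a2 (-0.10, limma adjusted p = 0.813). With no filter, all 9 could be fitted, with a median change of 0.17. Whether Adamts1, and Adamts5 in the wild-type cultures, stood above background is unknown, and the part of stromal cells in these signals was not tested.

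**Figure D2:**
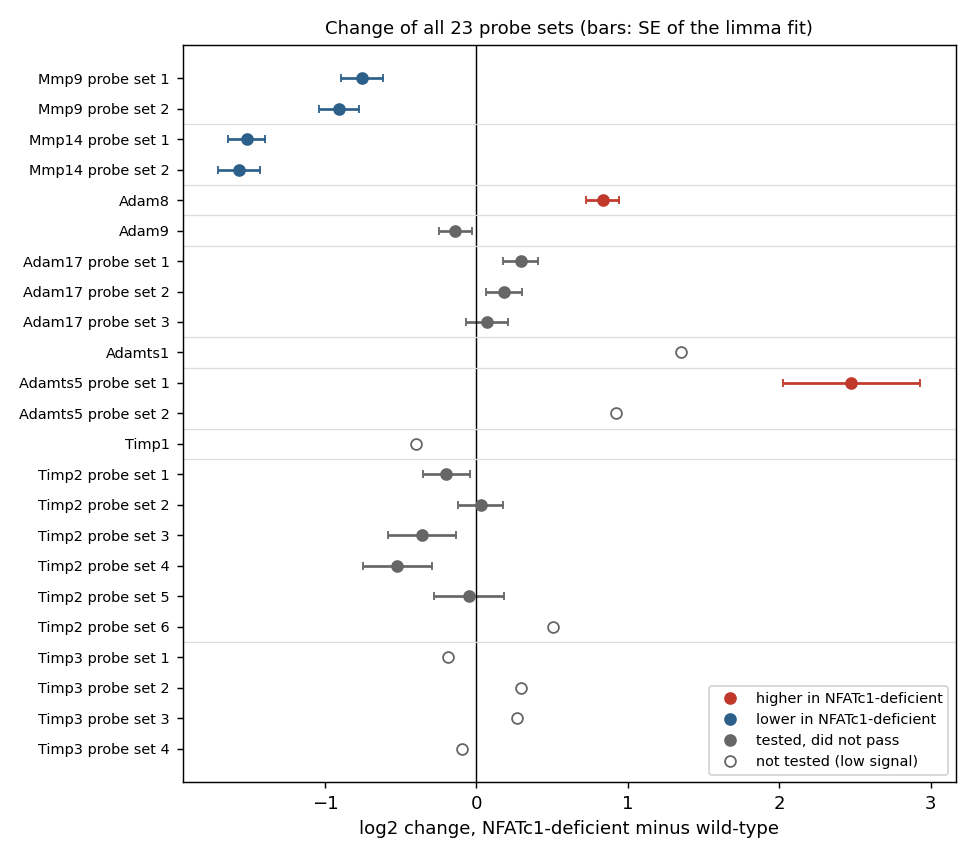
Log2 change, NFATc1-deficient minus wild-type, of all 23 probe sets, ordered by gene and within a gene by mean signal. Bars are the SE of the limma fit, and open circles without bars are the 8 probe sets under the filter. The 4 Mmp9 and Mmp14 probe sets lie between -1.57 and -0.75, and the 11 Timp probe sets between -0.52 and 0.51.

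No tested inhibitor probe set passed. Timp2, which inhibits MMP14 and also helps it activate pro-MMP2, had 6 probe sets, of which 5 were tested. The brightest had 790.9 and 1077.8 on the NFATc1-deficient arrays, against 1053.6 and 1070.6 on the wild-type arrays. Deficient replicate 1 lay below both wild-type arrays and deficient replicate 2 above them. The log2 change was -0.20 (SE 0.15, limma adjusted p = 0.396). The tested probe sets ranged from -0.52 (adjusted p = 0.133) to 0.03 (adjusted p = 0.919). The probe set at -0.52 had 128.3 and 133.6 on the NFATc1-deficient arrays, against 236.4 and 165.6 on the wild-type arrays, and was the only tested Timp2 probe set without overlap. Over the 5 tested Timp probe sets 0 passed in limma, and 1 had an unadjusted p under 0.05. The call on Timp2 turned on single arrays at 2 probe sets: the one at -0.52 passed without wild-type replicate 2 (adjusted p = 0.0492), and another, at -0.36, passed without NFATc1-deficient replicate 2 (0.0259). That probe set had 291.6 and 492.4 on the NFATc1-deficient arrays, against 525.9 and 462.9 on the wild-type arrays, and only deficient replicate 1 was low. Timp1, which binds pro-MMP9, had 36.1 and 36.2 on the NFATc1-deficient arrays, against 66 and 45.7 on the wild-type arrays. Both deficient signals were lower, but the probe set lay under the filter and its limma adjusted p among all probe sets was 0.503. Timp3, the inhibitor of ADAM17 and of ADAMTS enzymes, had 4 probe sets with mean signals of 6.4 to 43.3, all under the filter. The brightest Timp3 probe set had 34.1 and 44 on the NFATc1-deficient arrays, against 51.7 and 43.2 on the wild-type arrays, with overlap. Detection calls were not used here, so whether Timp1 and Timp3 stood above background is unknown.

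Proteases were then set against an inhibitor known to bind them, as the difference of their log2 signals on each array. Such a difference is comparable between arrays, not between gene pairs, and shows unequal change only. Mmp14 minus Timp2 was 0.86 and 0.67 on the NFATc1-deficient arrays, against 2.01 and 2.15 on the wild-type arrays, a change of -1.32. Here the groups were far apart relative to the spread between arrays (pooled SD 0.12). Only the brightest probe set of each gene was used. The tested Timp2 probe sets had changes of -0.52 to 0.03, so the size of this difference depends on the Timp2 probe set. Mmp9 minus Timp1 was 7.07 and 7.43 on the NFATc1-deficient arrays, against 7.35 and 7.86 on the wild-type arrays. These groups overlapped, and the change was -0.35 (pooled SD 0.31). They did not overlap with quantile normalization (change -0.30) or at a pseudocount of 93.2 (-0.55), and the change was -0.16 at a pseudocount of 1 and -0.61 to -0.10 without single arrays. Adam17 minus Timp3 was 4.83 and 4.50 on the NFATc1-deficient arrays, against 4.02 and 4.35 on the wild-type arrays, a change of 0.48 (pooled SD 0.23). Adamts5 minus Timp3 was 1.80 and 2.12 on the NFATc1-deficient arrays, against -0.05 and -1.35 on the wild-type arrays, a change of 2.66 (pooled SD 0.67). Timp1, Timp3 and wild-type Adamts5 were dim and not shown to stand above background, so the size of the differences that hold them is imprecise. The differences are given as descriptions, with no test.

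**Figure D3:**
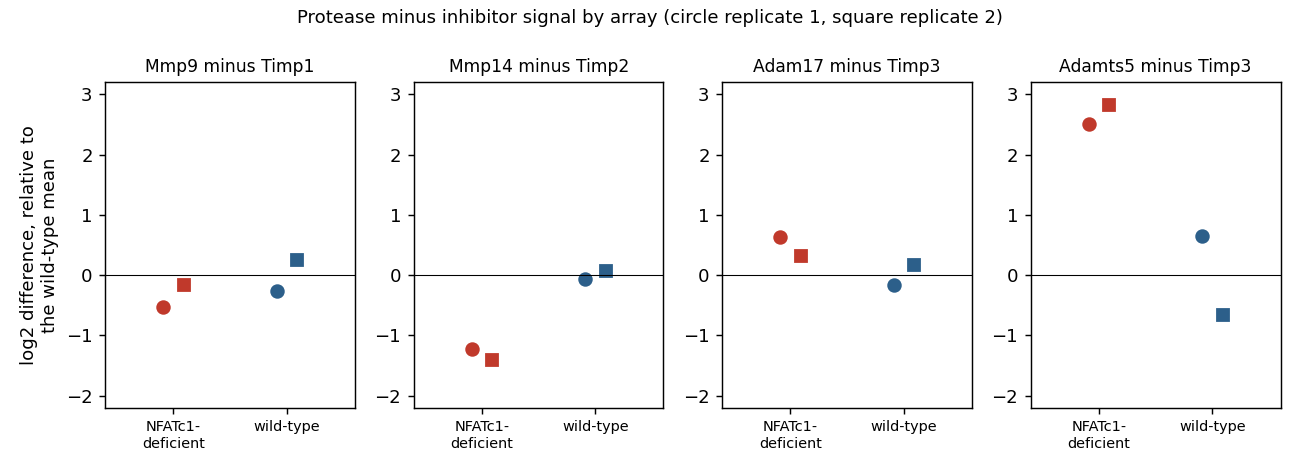
Difference of log2(signal + 23.3) between a protease and an inhibitor on each array, drawn relative to the wild-type mean of that pair (zero line). Red points are the NFATc1-deficient arrays and blue points the wild-type arrays. Mmp14 minus Timp2 lies 1.32 lower on average in the deficient cultures. Adamts5 minus Timp3 lies higher on both deficient arrays, and the Mmp9 minus Timp1 groups overlap at this pseudocount and scaling.

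Other metalloproteinase genes on the array were mostly dim. Of 19 further MMPs, 14 were found and 6 tested, and 0 passed in limma, with 1 at an unadjusted p under 0.05 (median -0.06, against 0.03 over all tested genes). Mmp8, the neutrophil collagenase, had 580.6 and 457.3 on the NFATc1-deficient arrays, against 819.1 and 602.4 on the wild-type arrays (log2 change -0.43, limma adjusted p = 0.122). Mmp12, the macrophage elastase, had 351.9 and 410.6 on the NFATc1-deficient arrays, against 322.3 and 238.5 on the wild-type arrays (log2 change 0.42, limma adjusted p = 0.141). Both had groups that did not overlap. Mmp8 passed in the fit with a replicate block (adjusted p = 0.0324) and without wild-type replicate 2 (0.0199), and Mmp12 passed without wild-type replicate 1 (0.0367). With median scaling 1 further MMP, Mmp24, was higher (limma adjusted p = 0.0262, against 0.143 without it). Its change was nearly the same (0.83, against 0.81) and its SE smaller (0.30, against 0.36). The median-scaling fit did not use the spread of each probe set. With no filter 1 of 14 further MMPs was higher, Mmp13, where 1157 of all 22626 probe sets were. Mmp24 and Mmp13 were named after their values were seen. The other Mmp24 probe set lay under the filter and went the other way (-0.68), with overlap. It had 4.7 and 49.3 on the NFATc1-deficient arrays, against 44.7 and 53.2 on the wild-type arrays. Of 20 further ADAM genes, all were found and 4 were tested, of which 1 rose and 0 fell (median -0.16). Over all tested genes 12.8% rose and 11.8% fell. With no filter, 1 of the 20 was lower and 1 higher, and the shares of the main fit do not apply to these counts. The largest fall among the 20 was that of Adam26a (-0.90), at signals close to the pseudocount or under it. It had 1.3 and 2.2 on the NFATc1-deficient arrays, against 24.4 and 22.5 on the wild-type arrays. The tested gene that rose was Adam10, the sheddase of Notch receptors and the closest relative of Adam17. Adam10 signal was 4495.4 and 3962.9 on the NFATc1-deficient arrays, against 2738.4 and 2609.7 on the wild-type arrays, without overlap (log2 change 0.65, SE 0.11, limma adjusted p = 0.00364). A second Adam10 probe set passed (0.44, adjusted p = 0.0174) and the remaining one did not (0.19, adjusted p = 0.322). Adam15 had a change of -0.11 (limma adjusted p = 0.582). Of 22 further ADAMTS and ADAMTS-like genes, 7 were found and 2 tested, Adamts10 (0.49, limma adjusted p = 0.146) and Adamts4 (-0.24, limma adjusted p = 0.572), and neither passed.

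Genes that activate or restrain metalloproteinases moved both ways. Of 20 genes, 18 were found and 10 tested, of which 3 fell and 3 rose (median 0.25), where 11.8% of all tested genes fell and 12.8% rose. Those lower were the pro-protein convertase Furin (-0.60), which cleaves the prodomain of MMP14 and several ADAMs, the MMP inducer Bsg (-0.54), and the ADAM10 partner Tspan14 (-0.54). Those higher were Thbs1 (1.09), a matrix glycoprotein, the urokinase receptor Plaur (0.86), and the clearance receptor Lrp1 (0.62), which takes up MMPs and Timps. Plaur had 1607.1 and 1503.8 on the NFATc1-deficient arrays, against 879.2 and 813.1 on the wild-type arrays. A second Thbs1 probe set did not pass (0.49, adjusted p = 0.148). Bsg, Furin, Tspan14 and Lrp1 lost the call under some of the other settings, and Thbs1 and Plaur under none of those that tested them. Without NFATc1-deficient replicate 1, 1 gene was lower and 2 were higher. Without wild-type replicate 2 the counts were 1 and 3, without NFATc1-deficient replicate 2 they were 2 and 3, without the variance trend 0 and 2, and with no filter 1 and 2.

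**Figure D4:**
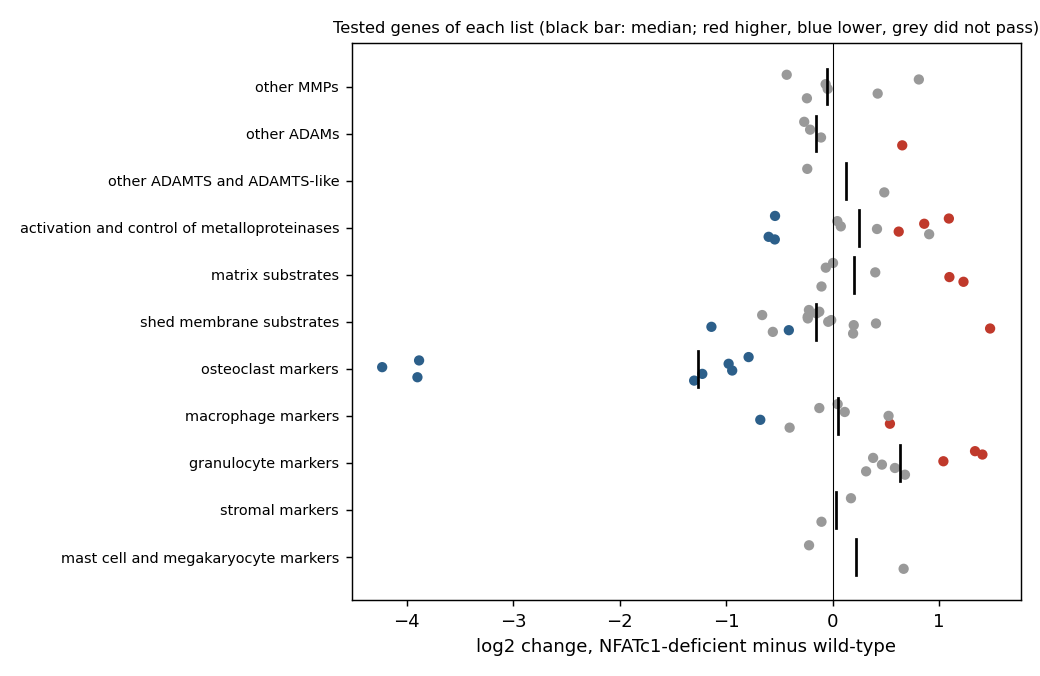
Log2 change, NFATc1-deficient minus wild-type, of each tested gene (point) in the lists of related genes, substrates and cell markers. Black bars are list medians. Osteoclast markers lie to the left (median -1.26), and the metalloproteinase, activator and substrate lists have medians between -0.16 and 0.25.

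Substrates were also measured. Of 14 matrix genes, 13 were found and 6 tested, of which 2 rose and 0 fell (median 0.20), where 12.8% of all tested genes rose and 11.8% fell. Both encode type IV collagen of basement membranes, a substrate of MMP9. Col4a1 signal was 179.6 and 268.8 on the NFATc1-deficient arrays, against 82.9 and 78.2 on the wild-type arrays (log2 change 1.23, limma adjusted p = 0.00813). Col4a2 signal was 170.3 and 180 on the NFATc1-deficient arrays, against 83 and 57.6 on the wild-type arrays (log2 change 1.10, limma adjusted p = 0.0126). A second Col4a1 probe set did not pass (0.29, adjusted p = 0.511). Without NFATc1-deficient replicate 2 neither gene passed (adjusted p of 0.0631 and 0.0594), and Col4a2 did not without NFATc1-deficient replicate 1 (0.0602) or with no filter (0.0549). Of 21 membrane proteins that ADAMs shed, 19 were found and 15 tested, of which 2 fell and 1 rose (median -0.15), close to the 11.8% and 12.8% of all tested genes. The growth factor precursor Hbegf fell to 222.6 and 203.8 on the NFATc1-deficient arrays, against 559.2 and 440.6 on the wild-type arrays (log2 change -1.14, limma adjusted p = 0.00258). The M-CSF receptor Csf1r fell at all 3 of its probe sets (-0.41, -0.88 and -0.89, with limma adjusted p of 0.0457, 0.000998 and 0.00121). The brightest, at -0.41, lost the call when NFATc1-deficient replicate 1, NFATc1-deficient replicate 2 or wild-type replicate 2 was left out. Its change was -0.56 to -0.26 without single arrays. The junction protein F11r rose to 498.3 and 500.7 on the NFATc1-deficient arrays, against 165 and 163.4 on the wild-type arrays (log2 change 1.48, limma adjusted p = 0.000573). A dimmer F11r probe set was not tested and went the other way (-0.59), with overlap. It had 31.9 and 14.1 on the NFATc1-deficient arrays, against 69.6 and 26.8 on the wild-type arrays.

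Markers of further cells the sort could leave behind were measured. Of 7 tested macrophage markers, Cd68 fell (-0.68) and Cd14 rose (0.54), with a list median of 0.05, where 11.8% of all tested genes fell and 12.8% rose. Without NFATc1-deficient replicate 1 neither passed (adjusted p of 0.101 and 0.228), and without wild-type replicate 2 Cd14 did not (0.0845). Itgam, which encodes the CD11b protein, had 713.1 and 799.6 on the NFATc1-deficient arrays after culture, against 713.9 and 678.1 on the wild-type arrays. None of the 6 lymphoid markers found was bright enough to test. Of 2 tested mast cell and megakaryocyte markers, neither Pf4 (-0.22, limma adjusted p = 0.548) nor Itga2b (0.67, limma adjusted p = 0.0763) passed. The part of these cells in the protease signals was not tested.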

How the data were processed

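Expression was measured in 4 cultures, 2 per genotype. Per the submitters' processing notes, the authors used MAS5, which gives a linear intensity for each probe set. The authors' scaling was read from the deposited values, whose trimmed mean (2% off each end) was 500.186 to 500.211 on every array. The version of MAS5 is not given in the sources used here, detection calls were not used, and the number of arrays limits the precision. Gene names come from the platform annotation, and the Entrez numbers of all 10 genes matched RefSeq.

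The scale was log2(signal + 23.3), with the 25th percentile of all values as pseudocount. After 64 control probe sets were left out, those with a mean log2 value above the 40th percentile (signal of about 59.3) were tested, 13578 in all. The test was limma 3.58.1 in R 4.3.3 (lmFit, eBayes with an intensity trend), two-sided, with Benjamini-Hochberg adjustment over all tested probe sets at 0.05. It was also run on simulated data with independent noise and no effect of sex or pool. That run does not cover such differences between the replicates. The brightest tested probe set stands for a gene. SD covers the spread between pools of a genotype, which also differ in sex and in the number of mice. SE is that of the limma fit, whose variance is moderated across probe sets along the intensity trend.

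The set of genes, the lists and the tests were chosen with earlier results of these data known. Genes named outside the set were Nfatc1, up to 6 called genes per list with the largest change, and the brightest 2 where none was called and in 3 lists of related genes. Single genes named beyond this rule (Xist, Itgam, Mmp13, Mmp24) were chosen after their values were seen. Alternatives covered scaling, pseudocount, filter, variance trend, a replicate block, mean of probe sets and leaving out each array.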

Additional observations from a re-analysis of the deposited data

How the results depend on the processing

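Mmp14 and Adam8 kept their direction and their call under all 12 alternatives that tested each probe set. The count of lower genes in the set was 2, but 1 with median scaling, and 1 to 2 when single arrays were left out, in each case through the brighter Mmp9 probe set. The count of higher genes was 2, but 1 with the filter at the 60th percentile, which leaves Adamts5 untested, and 2 to 2 when single arrays were left out. Over all probe sets 1546 were lower (933 to 1546 without single arrays) and 1739 higher (849 to 1953 without single arrays), lowest both times without NFATc1-deficient replicate 1. The higher count was 1157 with no filter and 1015 without the variance trend. Arrays of the same number deviated together weakly (r = 0.13 across probe sets), and in both genotypes the number goes with the pool size (3 or 4 mice) and the sex of the pool, but no label says that it marks a shared litter, batch or day. With replicate number as a block, 1805 probe sets were lower and 2066 higher, and the set's counts stayed at 2 and 2. Adamts5 minus Timp3 was 4.29 at a pseudocount of 1 and 1.51 at 93.2, as both genes lie near the pseudocount. No call reversed its direction. The median-scaling fit took its SE from the intensity trend and not from the spread of each probe set. Its calls therefore do not show the effect of the scaling alone.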

Other observations

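Mmp13, the collagenase of bone and cartilage cells, lay under the filter, with 59.8 and 76.7 on the NFATc1-deficient arrays, against 12.2 and 11.5 on the wild-type arrays. The groups did not overlap, as for 17.5% of probe sets under the filter in this direction. In the fit over all probe sets with no filter its log2 change was 1.37 (limma adjusted p = 0.0283).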
